A study of Mus musculus with 3 samples.

Results

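Macrophages rich in complement C1q were described in cultured mouse thymus, where they were selected on measured values: at least 10 UMIs (unique molecular identifiers, each a counted RNA molecule) of C1qa, C1qb and C1qc together and at most 1 UMI of Epcam. The rule was met by 234 of 9349 cells, 183 in the ORFTOC pool and 51 in the FTOC pool. An ORFTOC is a reaggregate of thymic epithelial cells grown as organoids from E16.5 thymi, E13.5 thymus cells depleted of EpCAM-positive cells, and mouse embryonic fibroblasts. An FTOC is an intact E13.5 thymic lobe. The thymi came from C57BL/6J mice, the fibroblasts were wild type with no strain given in the sources used here, and neither the labels nor the methods name an engineered allele for these cultures. Both cultures were kept on floating filters in ORFTOC medium with FGF7 and were dissociated with TrypLE on day 13. Thiazovivin was added at the start of ORFTOC culture, and the methods do not say outright whether the FTOCs received it. In each pool 2 cultures had been mixed before hashtag antibodies were added, and both pools shared 1 droplet lane. A pool was therefore 1 sample, no test between pools was possible, and all 95% intervals cover counting error only. The EpCAM-depleted fraction was not sorted for any blood lineage, the fibroblasts were added to the ORFTOCs only, and the FTOCs held all cells of their lobes.

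Macrophages of the thymus take up the many thymocytes that die during selection and digest them in lysosomes. They make the subunits of C1q, the protein that starts the classical complement pathway and also coats dying cells. Tissue macrophages that carry Timd4, a receptor for the phosphatidylserine on dying cells, are known as long-lived resident cells, whereas macrophages with MHC class II present peptides to T cells.

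All 3 C1q genes were detected in every one of the 234 cells, in close to equal amounts. C1qa (ENSMUSG00000036887) made up 33.8% of the C1q UMIs in ORFTOC and 31.9% in FTOC. C1qb (ENSMUSG00000036905) made up 36.8% and 37.3%, and C1qc (ENSMUSG00000036896) 29.4% and 30.8%. The C1q UMIs of a cell ranged from 10 over a median of 226 to 654 in ORFTOC and from 11 over 173 to 508 in FTOC. Of all C1qa UMIs in the 9349 cells, 92.8% lay in these cells, and in the other 5255 cells with a Ptprc UMI (Ptprc encodes CD45) a C1q UMI was seen in 10.7%, close to the 11.1% of the 2664 epithelial cells with at least 2 Epcam UMIs. Just outside the rule, 4 cells held 9 C1q UMIs, and just inside it 2 cells held 10. The C1q levels chose the cells and are given as a description.

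The complement-rich cells were deeply sampled. They held 3403199 UMIs in ORFTOC (median 19240 per cell, range 1009 to 42878) and 848561 in FTOC (median 15858, range 2109 to 46428), against a median of 5592 in the other Ptprc cells. No Ptprc UMI was found in 30 of the 234. The mitochondrial share was similar, with medians of 2.36% and 2.73%. The neighbour rule for doublets within a pool called 5 of the ORFTOC cells and 4 of the FTOC cells.

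The label was checked against macrophage markers. Lyz2, the macrophage lysozyme, was detected in 98.3% of the complement-rich cells and Csf1r, the receptor for the growth factor CSF1, in 84.6%, against 10.3% and 0.875% of the other Ptprc cells. With all cells thinned to 1000 UMIs, the Lyz2 share was 91.0% (95% interval 86.6 to 94.4) against 3.34%, and the Csf1r share 36.3% (30.2 to 42.8) against 0.212%. Epithelial cells, which should lack both, had thinned shares of 3.87% and 0.188%, so the shares in the other Ptprc cells lay near that background. Markers of other cells were present to unequal degrees. Of 8 dendritic cell genes Flt3, Xcr1 and Cd209a had no UMI, which allows up to 3 UMIs per gene over the 234 cells, and the list summed to 41.4 CPM against 129 CPM in the other Ptprc cells. Ccr7 and Ccl22 led it with 106 and 39 UMIs, and 38 ORFTOC and 16 FTOC cells held a UMI of the list. A UMI of the epithelial list was found in 113 and 26 cells, of the natural killer and innate lymphoid list in 95 and 24, and of the thymocyte list in 102 and 38. Of 8 neutrophil genes 6 were at 0, of 6 mast cell genes 4, of 5 B cell genes 4 and of 5 erythroid genes 4.

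The label held less well at the low end of the rule. At 50 or more C1q UMIs, a limit set after the values had been seen, 174 of 174 cells held Lyz2 and Csf1r. Of the 60 cells with 10 to 49 C1q UMIs, 56 held Lyz2 but only 24 held Csf1r, and their median depth was 3358 UMIs against 21301.5. These cells made up 40 of the 183 in ORFTOC and 20 of the 51 in FTOC. Their summed Csf1r level was 156 CPM (UMIs per 1000000 UMIs) in ORFTOC and 87.5 CPM in FTOC, against 628 and 642 CPM in the cells above the limit. The T cell receptor, thymocyte and cell cycle results are given below with and without these cells. For the named genes, the number still past 2-fold without them is given, with the ratios of some.

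The T cell receptor library gave a beta chain (TRB) for some of the complement-rich cells, and junctions are shown for ORFTOC barcodes whose chain recurred in other cells of the pool and for an FTOC barcode with more than 1 chain. In ORFTOC 30 of 183 had a productive TRB chain (16.4%, interval 11.3 to 22.6), and in FTOC 19 of 51 (37.3%, 24.1 to 51.9). Of the other Ptprc cells 55.8% and 69.6% had one, and of the epithelial cells 9.39% and 6.63%. More than 1 TRB chain was assembled in 3 ORFTOC and 7 FTOC cells. The 5 ORFTOC junctions found in the most other cells of their pool follow, then both junctions of an FTOC barcode with 11 C1q UMIs, neither of which was found in another FTOC cell. They run from the codon of the conserved cysteine to that of the conserved phenylalanine, both in capitals.
ORFTOC TRBV30 with TRBJ2-5: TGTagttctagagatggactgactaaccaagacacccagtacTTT
ORFTOC TRBV17 with TRBJ2-5: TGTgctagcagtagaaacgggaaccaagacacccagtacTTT
ORFTOC TRBV3 with TRBJ1-4: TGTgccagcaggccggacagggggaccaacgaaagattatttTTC
ORFTOC TRBV1 with TRBJ1-5: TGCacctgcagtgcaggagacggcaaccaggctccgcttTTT
ORFTOC TRBV16 with TRBJ1-4: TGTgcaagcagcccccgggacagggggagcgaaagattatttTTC
FTOC TRBV12-2 with TRBJ2-5: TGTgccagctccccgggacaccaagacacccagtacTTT
FTOC TRBV1 with TRBJ1-1: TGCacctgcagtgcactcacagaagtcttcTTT

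The TRBV30 junction was found in 17 other ORFTOC cells, the TRBV17 junction in 9, the TRBV3 junction in 7, and the TRBV1 and TRBV16 junctions in 4 each. The barcode with the TRBV1 junction held 83 UMIs of that contig beside 308 C1q and 1061 Lyz2 UMIs. The barcode with the TRBV30 junction held 10 contig UMIs beside 123 C1q and 58 Lyz2 UMIs. The FTOC barcode with 2 junctions held 52 and 10 contig UMIs beside 11 C1q, 2 Lyz2 and 99 thymocyte UMIs. It was chosen for the fewest C1q UMIs among the FTOC barcodes with more than 1 chain, so it sets up no contrast of the pools. Another of these FTOC barcodes held 442 C1q and 520 Lyz2 UMIs, and an ORFTOC barcode with 2 chains held 13 C1q and 0 Lyz2 UMIs. In all, 14 of 33 TRB chains of ORFTOC complement-rich cells recurred in other ORFTOC cells (42.4%, interval 25.5 to 60.8), and of the chains of the other ORFTOC cells 42.6% were found more than once. In FTOC 1 of 26 recurred (3.85%, 0.0973 to 19.6), against 11.7% of the other FTOC chains.

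Thymocyte transcripts went with these chains. A list of 18 thymocyte genes (receptor subunits such as Cd3d and Cd8b1, the recombinase Rag1, and regulators such as Tcf7) summed to 614 CPM (588 to 641) in the ORFTOC complement-rich cells and to 2252 CPM (2152 to 2355) in those of FTOC. The other Ptprc cells had 4729 and 6931 CPM, the epithelial cells 465 and 330 CPM, and ambient droplets (at most 100 UMIs) 3044 CPM. The log2 ratio of ORFTOC over FTOC in the complement-rich cells was -1.87 (-1.96 to -1.78), and 14 of 14 genes tested were at least 2-fold lower in ORFTOC, as were 4.66% of all genes. With the minimum on the mean of both pools 13 of 13 were. Over cells the distribution was split. No thymocyte UMI was found in 81 ORFTOC and 13 FTOC cells, none of which had a TRB chain, while at least 10 were found in 42 ORFTOC and 29 FTOC cells, of which 26 and 19 had a chain. Every FTOC complement-rich cell with a TRB chain held at least 17 thymocyte UMIs.

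The low-C1q cells carried a large part of the FTOC signal. Of the 20 FTOC cells with 10 to 49 C1q UMIs, 12 had a TRB chain (interval 36.1 to 80.9%), and the thymocyte list stood at 5856 CPM, near the level of the other FTOC Ptprc cells. Of the 31 with more C1q, 7 had a chain (9.59 to 41.1%), and the list stood at 1557 CPM. In ORFTOC the shares were 8 of 40 and 22 of 143, and the levels 1817 and 519 CPM. With the low-C1q cells left out, the intervals of the TRB shares of the pools overlapped, and the thymocyte ratio was -1.59 (-1.70 to -1.47). Doublets, free RNA and ingested thymocytes could not be told apart from these values. Of the 49 cells with a chain, 4 were among the 9 called doublets.

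**Figure D1:**
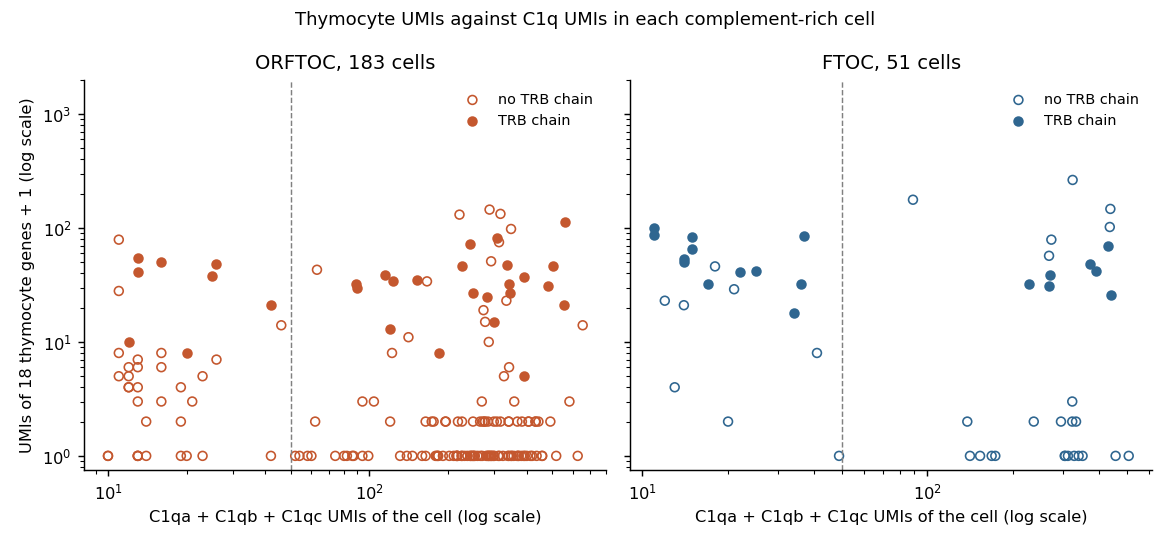
Each point is 1 complement-rich cell of ORFTOC (left) or FTOC (right), with its C1q UMIs on the horizontal axis and the UMIs of 18 thymocyte genes plus 1 on the vertical axis, both on log scales. Filled points had a TRB chain, and the dashed line stands at 50 C1q UMIs. To its left lie 20 of the 51 FTOC cells, of which 12 had a chain, and 40 of the 183 ORFTOC cells, of which 8 had one.

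Beyond C1q, the complement-rich cells differed from the other Ptprc cells in a broad set of genes. Since the cells had been chosen by their C1q level, these differences describe the choice and carry no test. Of 3797 genes with at least 50 CPM in either class, 698 were at least 2-fold higher in the complement-rich cells (18.4%) and 655 lower (17.3%), with a median log2 ratio of -0.26 over all genes. The other Ptprc cells included barcodes with Epcam UMIs, and without those with more than 1 the counts were 758 higher and 723 lower. Among macrophage markers 12 of 12 were higher, with Lyz2 at 12793 against 94.4 CPM, Cd68 at 861 against 11.5 CPM and Csf1r at 585 against 6.65 CPM. Besides C1q, the complement genes Cfp (properdin, which stabilises the alternative pathway), C3 and C3ar1 (receptor of the C3a fragment) stood at 451, 417 and 277 CPM, and 8 of 9 complement genes tested were higher. Of the other Ptprc cells 62.2% had a TRB chain, and 16 of 16 thymocyte genes and 12 of 12 cell cycle genes were lower in the complement-rich cells.

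Genes for digesting and recycling cell contents were among the most abundant. Of 26 lysosome genes 25 were higher, with Ctsb and Ctsd, which encode lysosomal proteases, at 4800 and 3055 CPM against 176 and 215 CPM. Apoe, which carries lipid out of the cell, stood at 11532 CPM against 142 CPM, and Trem2, a lipid-sensing receptor, at 418 against 6.95 CPM. In iron and haem handling 10 of 10 genes were higher, led by the ferritin chains Fth1 (25783 against 1499 CPM) and Ftl1 (15601 against 1420 CPM) and followed by the haem-degrading enzyme Hmox1 (375 against 10.7 CPM). Of 15 genes for the uptake of dying cells 11 were higher and 1 lower. Among 14 myeloid transcription factors 12 were higher, including Spi1 (610 against 13.8 CPM).

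The 15 genes with the largest ratios among those with at least 200 CPM, C1q aside, held secreted and surface proteins of macrophages. They included Mmp13, a collagen-cleaving protease (221 against 1.30 CPM, log2 7.41), the mannose receptor Mrc1 (255 against 1.70 CPM, log2 7.23), the chemokines Ccl24 (478 against 3.25 CPM, log2 7.20), Ccl8 (log2 6.81) and Ccl6 (log2 6.68), and the platelet factor Pf4 (log2 7.10). Lyz2, Ms4a7, Cd300c2, Fcgr2b, Cybb, C3ar1, Cd36, Clec4n and Spp1 were the others. Mmp13, Ccl24, Cd36 and Spp1 were each found in fewer than 100 of the 234 cells, and 1 cell held 90.1% of the FTOC Spp1 UMIs.

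The pools differed in how many complement-rich cells they gave, but this rested on how hashtags were read. ORFTOC cells were 78.2% of the complement-rich cells (72.4 to 83.3) against 53.2% of the other Ptprc cells (51.8 to 54.6). The complement-rich cells made up 6.14% of ORFTOC cells with a Ptprc UMI or in the class (5.31 to 7.07) and 2.03% in FTOC (1.52 to 2.66). A cell was assigned to a pool when at least 80% of its hashtag UMIs came from 1 hashtag. FTOC cells bore fewer hashtag UMIs, with medians of 1921 against 6201 in the complement-rich cells and of 772 against 3058 in the other Ptprc cells. With at least 95% required, the other FTOC Ptprc cells fell from 2459 to 734 and the complement-rich cells from 51 to 44. The ORFTOC shares were then 78.8% of complement-rich and 77.2% of other Ptprc cells, and the shares per pool 6.198% and 5.66%, with overlapping intervals. The pools had also been mixed in equal cell numbers before loading, so no number of cells per culture can be read from these shares.

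**Figure D2:**
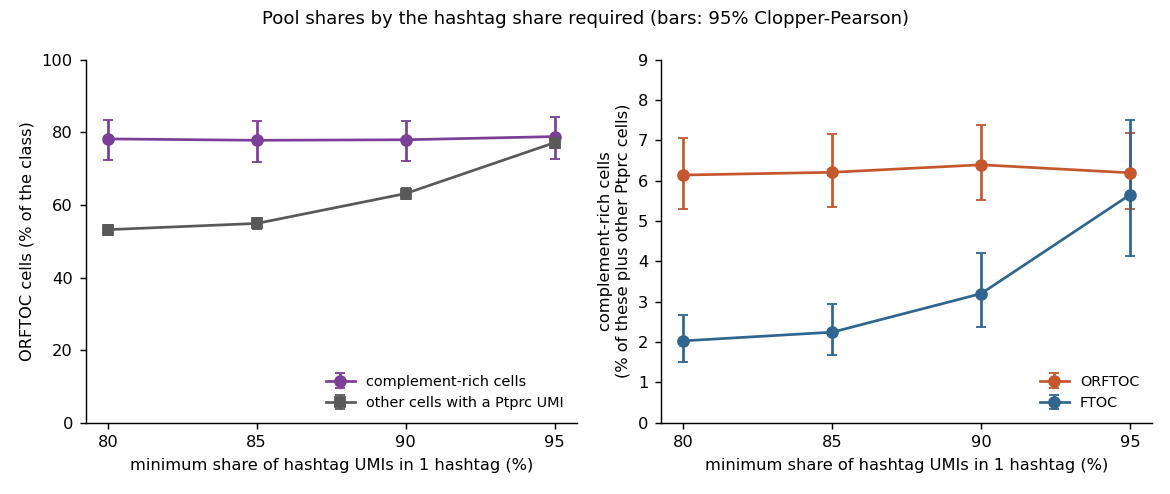
The horizontal axes give the share of hashtag UMIs that 1 hashtag had to hold, from 80 to 95%. The left panel shows the percentage of ORFTOC cells among complement-rich cells and among other Ptprc cells, which stood at 78.2 and 53.2% at the left end and at 78.8 and 77.2% at the right end, and the right panel shows complement-rich cells per Ptprc cells in each pool, with bars for 95% Clopper-Pearson intervals.

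Within the complement-rich cells, most genes differed little between the pools. Of 3324 genes with at least 50 CPM in either pool, 83 were at least 2-fold higher in ORFTOC (2.5%) and 155 at least 2-fold lower (4.66%), with a median log2 ratio of -0.12. Of 12 macrophage markers 2 were at least 2-fold higher in ORFTOC, Ctss and Cd14 (348 and 157 CPM, log2 1.15, 0.97 with 50 C1q UMIs as the minimum), and none lower, and the list summed to 1.52 times its FTOC level. Several abundant genes of the class stood close together. Csf1r had 593 CPM in ORFTOC and 553 CPM in FTOC (log2 0.10, -0.04 to 0.25), Apoe 11710 and 10817 CPM (log2 0.11, 0.08 to 0.15), Ctsb 4861 and 4555 CPM (log2 0.09) and the lectin receptor Clec4n 1116 and 1108 CPM (log2 0.01). Of 26 lysosome genes 1 passed 2-fold, Ctss, a protease that trims the invariant chain of MHC class II (3185 and 1375 CPM, log2 1.21, 1.12 to 1.30). Lyz2 stood at 14019 and 7875 CPM (log2 0.83, 0.80 to 0.87). None of 10 genes tested from a dissociation stress list passed 2-fold, with a median log2 of 0.24.

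Genes of resident tissue macrophages were lower in the ORFTOC cells. Of 15 such genes 11 reached 50 CPM in either pool, 6 of them in FTOC alone, and 8 were at least 2-fold lower in ORFTOC and none higher. Since a gene that reached the minimum in FTOC alone leans to being lower, the minimum was also set on the mean of both pools, where 9 genes were tested and 6 were lower, against 3.29% of all 2983 genes. Timd4 stood at 31.1 CPM in ORFTOC, where 22 of 183 cells held a UMI, and at 139 CPM in FTOC, where 21 of 51 did (log2 -2.16, -2.55 to -1.77). Folr2, a folate receptor, stood at 23.5 CPM in 19 cells and 111 CPM in 16 cells (log2 -2.24, -2.69 to -1.79). Mrc1 was broad, with UMIs in 130 ORFTOC and 35 FTOC cells, and stood at 209 and 440 CPM (log2 -1.07, -1.26 to -0.89). The single cell with the most Mrc1 UMIs decided whether that ratio passed 2-fold, since without it the log2 ratio was -0.93. F13a1, the coagulation factor XIII A chain, stood at 1.76 CPM in 6 ORFTOC cells and 123 CPM in 14 FTOC cells (log2 -6.12, -7.60 to -4.95), although the complement-rich cells held only 16.3% of all F13a1 UMIs in the series. Gas6, which bridges dying cells to receptors of the Mertk family, stood at 57.6 and 131 CPM (log2 -1.18). Cbr2, Siglec1 and Clec10a were the other 3, with 46.4% of the FTOC Cbr2 UMIs in 1 cell. Gas6 and Cbr2 were not particular to these cells. Over both pools Gas6 stood at 72.2 CPM, against 424 CPM in epithelial cells and 159 CPM in ambient droplets. Cbr2 stood at 26.8 CPM, against 882 and 244 CPM. The ambient share, scaled on epithelial genes, was 5.31% in the ORFTOC and 1.72% in the FTOC complement-rich cells. With the ambient profile subtracted, the log2 ratio of Gas6 went from -1.18 to -1.38 and that of Cbr2 from -2.62 to -6.45. The part of RNA from epithelial cells beyond this profile was not tested.

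Of 11 iron and haem genes tested 3 were at least 2-fold lower in ORFTOC and none higher, against 4.66% and 2.5% of all genes. With the minimum on the mean of both pools 2 of 10 were lower, against 3.29% of all genes. The list summed to 1.54 times its FTOC level through Fth1 (28206 and 16067 CPM, log2 0.81). Vcam1, an adhesion receptor, stood at 184 and 396 CPM (log2 -1.11, -1.30 to -0.91), the iron exporter Slc40a1 at 98.1 and 219 CPM (log2 -1.16, -1.42 to -0.89) and Spic, a transcription factor of red pulp macrophages, at 21.5 and 67.2 CPM (log2 -1.65, -2.17 to -1.12). By contrast, Hmox1 had 393 and 302 CPM and Blvrb 517 and 489 CPM, both within 2-fold. Fcna and Cd209f were named for their small ratios and belong to no list. Fcna, the lectin ficolin A that can start the complement cascade, stood at 25.0 CPM in 40 ORFTOC cells and 268 CPM in 30 FTOC cells (log2 -3.42, -3.80 to -3.06). Cd209f, a C-type lectin, had no UMI in the 183 ORFTOC cells and 99 UMIs in 8 of the 51 FTOC cells (117 CPM). Against the limit of 3 UMIs that a count of 0 allows over the pool, it was 132-fold higher in FTOC (log2 -7.05). There 1 cell held 29.3% of the Cd209f UMIs, and without that cell the log2 ratio was -6.55. Among the 10 genes with the smallest ORFTOC ratios were also the thymocyte genes Cd8b1 and Trbv1 and the predicted gene Gm4258. Of the iron genes, the Slc40a1 ratio came to -0.88 without its leading cell.

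MHC class II genes were higher in the ORFTOC cells. Of 9 genes tested from this list 6 were at least 2-fold higher in ORFTOC and none lower, against 2.5% and 4.66% of all genes, and the same counts held with the minimum on the mean of both pools. H2-Aa stood at 1013 CPM in ORFTOC, with UMIs in 93 of 183 cells, and at 249 CPM in FTOC, with UMIs in 10 of 51 cells (log2 2.03, 1.83 to 2.23). H2-Ab1 had 999 and 250 CPM, H2-Eb1 805 and 157 CPM (log2 2.36) and Cd74, the invariant chain, 4112 and 1124 CPM (log2 1.87, 1.78 to 1.97). H2-M2, which the list held although it belongs to the class I family, stood at 816 and 179 CPM (log2 2.19), and H2-DMb1, which helps load peptides, at 119 and 46.0 CPM. These levels were uneven among cells. The H2-Aa level of a cell ran from 0 over a median of 36.0 to 16044 CPM in ORFTOC and from 0 over a median of 0 to 5679 CPM in FTOC. Epithelial cells had more H2-Aa (2832 CPM) than either pool of complement-rich cells.

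**Figure D3:**
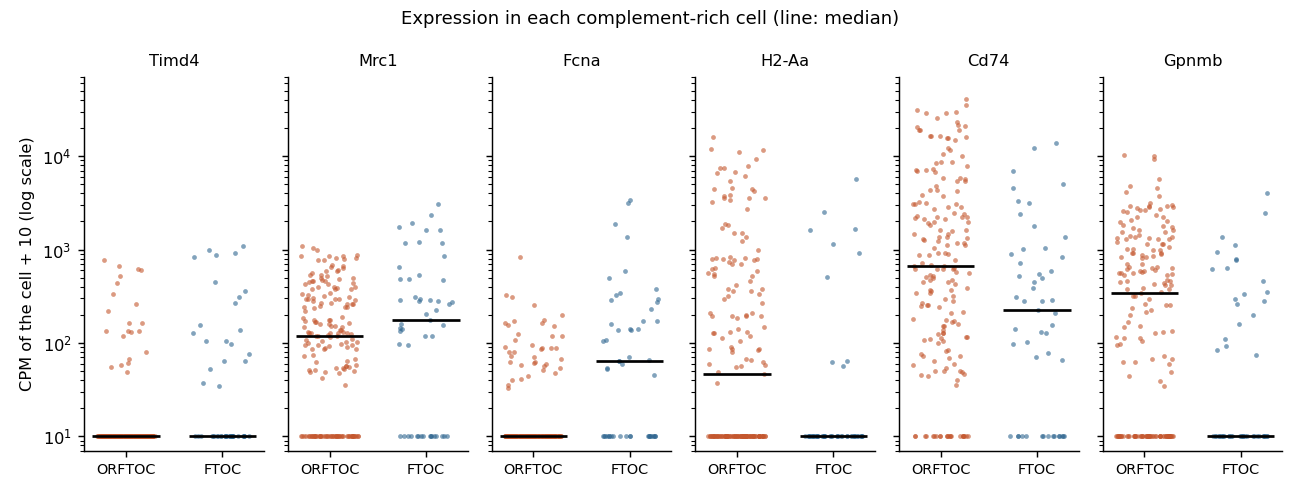
Each point is the level of 1 gene in 1 complement-rich cell, as CPM of the cell plus 10 on a log axis, for 183 ORFTOC and 51 FTOC cells, and the line is the median over cells. Timd4 and Fcna were detected in 22 and 40 ORFTOC and in 21 and 30 FTOC cells, while H2-Aa was detected in 93 ORFTOC and 10 FTOC cells.

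Timd4 and H2-Aa were also read in the same cells. With cells thinned to 5000 UMIs, which left out 27 ORFTOC and 10 FTOC cells, 14 of 156 ORFTOC cells held Timd4, 58 held H2-Aa and 2 held both. In FTOC 12 of 41 held Timd4, 6 held H2-Aa and 2 held both. At full depth, 9 of 22 ORFTOC and 6 of 21 FTOC cells with Timd4 also held H2-Aa. Ambient droplets held H2-Aa at 696 CPM, and the part of ambient RNA in these pairs was not tested. H2-Aa and H2-M2 were both found in 41 of 156 thinned ORFTOC cells, H2-Aa alone in 17 and H2-M2 alone in 47. Of 41 thinned FTOC cells 2 held both, 4 held H2-Aa alone and 3 held H2-M2 alone. The chemokine receptor Cx3cr1, which marks another set of thymic macrophages, was as frequent in the pools (85 of 183 and 24 of 51 cells), and 17 of 22 ORFTOC and 15 of 21 FTOC cells with Timd4 held it too.

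Several genes of lipid-laden macrophages were higher in the ORFTOC cells. Of 11 genes in the list for Cx3cr1 and lipid-associated macrophages 4 were at least 2-fold higher and none lower, against 2.5% and 4.66% of all genes. The surface protein Gpnmb stood at 1134 and 429 CPM (log2 1.40, 1.25 to 1.56), the galectin Lgals3 at 6192 and 2891 CPM (log2 1.10, 1.04 to 1.16), the integrin chain Itgax at 276 and 91.9 CPM (log2 1.59, 1.25 to 1.94) and the fatty acid binding protein Fabp5 at 4242 and 1695 CPM (log2 1.32, 1.25 to 1.40). Fabp5 was also abundant in epithelial cells (3952 CPM). Mfge8, which bridges phosphatidylserine to integrins, belongs to the list for the uptake of dying cells. It stood at 1379 and 465 CPM (log2 1.57, 1.42 to 1.72). Of 16 genes tested from that list 1, Mfge8, was at least 2-fold higher in ORFTOC, against 2.5% of all genes. Gas6, Timd4 and Scarb1, 3 of the 16, were lower, against 4.66% of all genes. The Gpnmb and Mfge8 ratios depended on the C1q limit, since with 5 C1q UMIs as the minimum they were 0.60 and 0.21. The Lgals3 ratio fell short of 2-fold with minimums of 5 (0.75), 20 (0.98) and 50 C1q UMIs (0.95). Trem2, at 459 and 252 CPM, stayed within 2-fold.

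**Figure D4:**
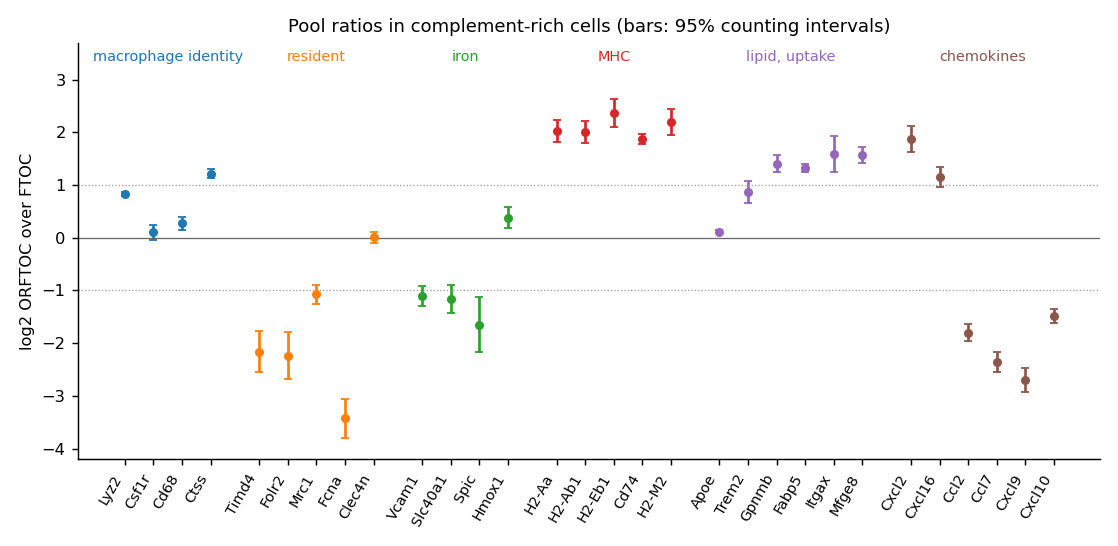
The vertical axis gives the log2 ratio of ORFTOC over FTOC in summed UMIs of complement-rich cells for genes named on the horizontal axis, with bars for 95% counting intervals and dotted lines at 2-fold. Resident genes such as Timd4 (-2.16) lie below 0, and MHC genes such as H2-Aa (2.03) lie above it. Csf1r (0.10), Apoe (0.11) and the resident gene Clec4n (0.01) lie near it. Fcna (-3.42) is drawn beside the resident genes, but it belongs to no list and was named for its small ratio.

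Chemokines were split. Of 20 chemokine and cytokine genes tested 3 were at least 2-fold higher in ORFTOC and 6 lower, against 2.5% and 4.66% of all genes. Higher were Cxcl2, which attracts neutrophils (651 and 178 CPM, log2 1.87), Cxcl16 (656 and 297 CPM, log2 1.14) and Ccl5. Lower were the monocyte attractants Ccl2 (200.4 and 700.009 CPM, log2 -1.80, -1.97 to -1.64) and Ccl7 (112 and 574 CPM, log2 -2.36), the interferon-induced Cxcl9 (78.7 and 511 CPM, log2 -2.70) and Cxcl10 (333 and 929 CPM, log2 -1.48), and Ccl12 and Il18. A few cells carried some of them. Of the FTOC UMIs, 1 cell held 35.5% for Cxcl9 and 36.0% for Cxcl10, and without the leading cell the Cxcl10 ratio was -0.84. Of the ORFTOC Cxcl2 UMIs 1 cell held 36.9%, and without that cell the Cxcl2 ratio was 1.21. Cxcl3 (339 and 31.8 CPM) had 36.2% of its ORFTOC UMIs in 1 cell, and only 4 FTOC cells held it. Of 10 interferon response genes 2 were lower in ORFTOC, against 4.66% of all genes, namely Cxcl10 and Gbp2, while Isg15 (549 and 767 CPM) and Irf7 (562 and 581 CPM) stayed within 2-fold. Without cells with a T cell receptor contig, Cxcl10 (-0.71) and Gbp2 (-0.53) also fell short of 2-fold.

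Among the 10 genes with the largest ORFTOC ratios were Fn1, Ass1, Cxcl3 and H2-Eb1. The cell of origin of these transcripts was not tested, and H2-Eb1 stood at 2031 CPM in epithelial cells, against 676 CPM in the complement-rich cells of both pools. The matrix protein fibronectin (Fn1) stood at 385 CPM in 71 ORFTOC cells and 50.7 CPM in 6 FTOC cells (log2 2.93, 2.49 to 3.40), and the arginine-making enzyme Ass1 at 513 and 105 CPM (log2 2.29, 1.98 to 2.61). Fn1 and S100a4 were the 2 of 5 monocyte genes tested that were at least 2-fold higher in ORFTOC, against 2.5% of all genes, and none was lower. The remaining 6, Col1a1, Col3a1, Col1a2, Sparc, Ccl19 and Bpifa1, are known from stromal or epithelial cells. Col1a1, Col3a1 and Col1a2, the chains of fibrillar collagens, stood at 230, 198 and 156 CPM in ORFTOC with 2, 5 and 3 UMIs in all FTOC cells, and Sparc at 199.8 and 8.25 CPM. Of the ORFTOC UMIs of 7 mesenchymal genes, 95.4% lay in 5 cells, and at least 3 such UMIs were found in 20 ORFTOC cells and 1 FTOC cell. Ccl19, a chemokine made by stromal cells, had 92.6% of its ORFTOC UMIs in 1 cell. Without the 21 cells with mesenchymal UMIs, Sparc and Ccl19 turned to log2 -0.35 and -0.28. Bpifa1, the most abundant gene of the epithelial list (10843 CPM in epithelial cells, 2218 CPM in ambient droplets), stood at 134 and 8.25 CPM. The embryonic fibroblasts were added to the ORFTOC only, and the part of such transcripts in other pool differences was not tested beyond leaving out these 21 cells.

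**Figure D5:**
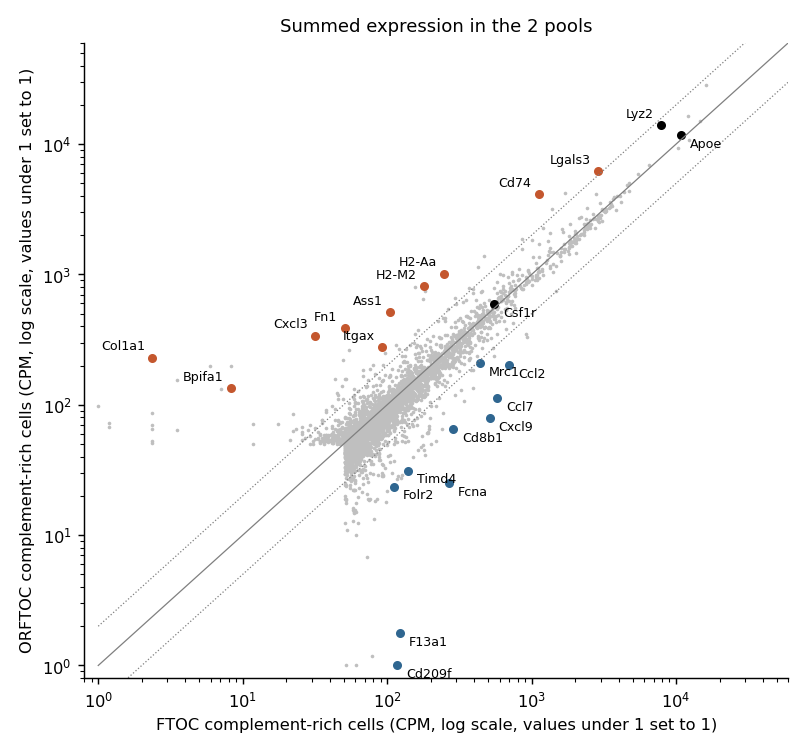
Each point is a gene with at least 50 CPM in either pool of complement-rich cells, placed by its summed CPM in FTOC (horizontal) and ORFTOC (vertical) on log axes where values under 1 CPM are drawn at 1, with dotted lines at 2-fold. Named genes above the upper line, such as H2-Aa (1013 against 249 CPM) and Fn1 (385 against 50.7 CPM), are orange, those below the lower line, such as Fcna (25.0 against 268 CPM), are blue, and Lyz2, Apoe and Csf1r between the lines are black.

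Cell cycle transcripts were found in some of the complement-rich cells, at a list level of 726 CPM against 1090 CPM in ambient droplets and 712 CPM in epithelial cells. At least 2 UMIs over 6 cycle genes (Mki67, Top2a, Cdk1, Birc5, Ube2c and Tpx2) marked 47 of the 183 in ORFTOC (25.7%, interval 19.5 to 32.6) by this count. They marked 19 of the 51 in FTOC (37.3%, 24.1 to 51.9), against 32.1% and 26.6% of the other Ptprc cells. The other Ptprc cells were less deeply sampled, with a median of 5592 UMIs against 18614. With at least 10 cycle UMIs the shares were 10.4% and 13.7%, against 22.6% and 17.3% of the other Ptprc cells. With the complement-rich cells alone thinned to 5000 UMIs, their shares at 2 cycle UMIs were 14.1% (9.05 to 20.6) and 17.1% (7.15 to 32.1). The intervals of the pools overlapped with and without thinning. Of 8 cycle genes tested 4 were at least 2-fold lower in ORFTOC, against 4.66% of all genes, for example Mki67 (52.0 and 117 CPM, log2 -1.17). With the minimum on the mean of both pools 3 of 7 were lower, against 3.29% of all genes. Without the leading cell of each, Mki67 (-0.24), Top2a (-0.66) and Tpx2 (-0.86) fell short of 2-fold and Ube2c (-1.55) did not. Without cells with a T cell receptor contig, Ube2c (-0.15), Top2a (-0.70) and Tpx2 (-0.9996) fell short and Mki67 (-1.23) did not. The FTOC cells with a contig in the T cell receptor library had a cycle gene level of 1052 CPM, against 405 CPM in those without. With cells that had a contig left out of both pools, 23.5% of ORFTOC (17.1 to 31.1) and 40.6% of FTOC cells (23.7 to 59.4) held at least 2 cycle UMIs. With at least 50 C1q UMIs the shares were 28.0% and 41.9%. The part of thymocyte RNA in the cycle counts of cells without a contig was not tested.

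The pools also differed in the sex-linked transcripts of their embryos. An Xist UMI without a Y-linked UMI was found in 73 of 183 ORFTOC cells and 46 of 51 FTOC cells, and a Y-linked UMI without Xist in 60 ORFTOC cells and 1 FTOC cell. Sex and pool were therefore confounded in the comparison of all cells. Among the 73 and 46 cells with Xist alone, Timd4 had a log2 ratio of -1.69, Folr2 of -2.73, Mrc1 of -1.22 and Fcna of -3.22, and H2-Aa had one of 2.27, Cd74 of 2.06, Gpnmb of 1.43 and Fn1 of 3.30. Of 60 named genes 54 were still past 2-fold there, and besides Xist itself Vcam1 (-0.94), Gbp2 (-0.99), Mki67 (-0.98), Top2a (-0.73) and Ube2c (-0.68) fell short. In the 143 ORFTOC and 31 FTOC cells with at least 50 C1q UMIs, 55 of 60 named genes past 2-fold were still past it in the same direction. The 5 that fell short there were Cd14, Lgals3, Id3, Gbp2 and Ccl19.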

How the data were processed

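The authors aligned 5′ droplet libraries of both pools, with hashtag and T cell receptor libraries, to the mouse genome (mm10). The submitters' processing notes name Cell Ranger 6.1.2 and Seurat 4.2.0, while the matrix header names version 4 of Cell Ranger. The deposited values were raw UMI counts of 32285 genes in 705161 barcodes, and the deposited contig table gave UMI counts per receptor chain.

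From these counts, barcodes with at least 600 genes, 0.4 to 10% mitochondrial UMIs and at least 80% of at least 10 hashtag UMIs in 1 hashtag were kept (9349, with 896 left without a pool). The authors' own demultiplexing and doublet removal were not rebuilt. Doublets within a pool were called from 50 neighbours over 50 components of 2000 genes and were kept, with their removal as an alternative. Of the 896, 9 met the C1q and Epcam rule. Counts were summed over cells and given as CPM. A gene was counted as higher or lower at 2-fold, among genes with at least 50 CPM in the higher class, with counts under 3 set to 3, and its ratio has a 95% exact binomial interval. Poisson intervals were used for levels and Clopper-Pearson intervals for shares. No test was made, since each pool was 1 sample.

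The cell rule and the 26 gene lists were chosen with earlier results of these data known. Named genes were the 5 highest and up to 4 past 2-fold in each list, the 10 largest and 10 smallest pool ratios at 100 CPM or more, and the 15 largest ratios over other Ptprc cells at 200 CPM or more. Python 3.11.15, numpy 2.4.6, scipy 1.17.1, pandas 2.3.3 and scikit-learn 1.9.0 were used, and the code was tested on simulated counts. The alternatives changed the CPM minimum, C1q minimum, hashtag share, ambient RNA, doublets, contigs, thinning and weighting of cells.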

Additional observations from a re-analysis of the deposited data

How the results depend on the processing

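Each pool was 1 sample, so no replicate could be left out. No paired analysis was possible because the pools carried no shared replicate and no test was made. Of the values that answer a comparison, 123 stayed within counting error or 1.5 times and 37 moved. Of those for single genes, 1122 stayed, 248 moved and 4 turned. The gene counts followed the CPM minimum. Against the other Ptprc cells, 1127 genes were higher and 1309 lower at 20 CPM, 400 and 346 at 100 CPM, and 4399 and 3654 with no minimum. Between the pools, 166 were higher and 397 lower at 20 CPM, 52 and 68 at 100 CPM, and 412 and 1948 with no minimum, 246 were lower with every cell given equal weight, and 98 with the minimum on the mean of both pools. The log2 thymocyte ratio was -2.28 with the ambient profile subtracted, -1.64, -1.70 and -1.59 with C1q minimums of 5, 20 and 50 UMIs, -2.15 with a hashtag share of 95%, -2.11 without cells with contigs, and -2.25 in cells with Xist alone. The share of complement-rich cells among Ptprc cells was 5.20% in ORFTOC with a C1q minimum of 20 UMIs. It was 7.20% in ORFTOC and 3.02% in FTOC with 1000 C1q UMIs per 1000000, 5.19% and 1.28% without cells with contigs, and 4.83% and 1.24% with 50 C1q UMIs. In FTOC it was 3.20% and 5.66% with hashtag shares of 90% and 95%. The share of cells with cycle UMIs was 14.2% in ORFTOC and 19.6% in FTOC with at least 5 cycle UMIs, 14.1% and 17.1% after thinning, and 23.7% in FTOC with 1000 C1q UMIs per 1000000. The TRB share was 22.6% in FTOC with 50 C1q UMIs and 10.96% in ORFTOC with Xist alone. Ccl19 turned to -0.089 with 20 C1q UMIs and to -0.28 without cells with mesenchymal UMIs, Sparc to -0.35 in the latter, and Id3 to 0.062 without cells with contigs. The causes were not tested. Of 60 named genes past 2-fold, 52 were still past it without their leading cell, 52 with 5 C1q UMIs, 54 without cells with contigs and 58 with a hashtag share of 95%. The alternatives with 50 C1q UMIs, a 90% hashtag share, Xist alone, mesenchymal UMIs, Epcam in the other cells and the mean of both pools were chosen after seeing the data.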
